A study of Mus musculus with 5 samples.

Results

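The 737 features described here are the intervals of mouse chromosome 16 that overlap the 20 Mb on either side of Adcy5, out of 53700 features counted in all. They were chosen by position alone: the window runs from chr16:15154877 to 55305738 in GRCm38, and Adcy5 lies at chr16:35154877-35305738. Of these features, 393 held at least 1 count and 211 passed the filter on low counts and were tested, against 13665 tested over the whole genome. RNA was sequenced from mouse striatum in 5 libraries: 3 carried the genotype label Adcy5 WT (WT replicates 1, 2 and 3), and 2 came from the line with the Adcy5 R419W knock-in (KI replicates 1 and 3). The samples were homogenates of whole striatum from adult mice, the WT mice being littermates, although the labels also call the cells striatal cells. Zygosity, sex and an age beyond adult are not given in the labels used here. No label ties a library to an animal of its own, so a p-value here reflects how far the libraries differ among themselves, technical differences included. Fewer cells of a type and less RNA per cell cannot be told apart in such homogenates.

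Adcy5 encodes adenylyl cyclase 5, the main enzyme that makes cyclic AMP in striatal spiny projection neurons, where dopamine and adenosine receptors raise or lower its activity through G proteins. R419W is a missense change in that enzyme. A knock-in allele is inherited together with the DNA around it, so the genes beside the altered one are the natural place to look at when a knock-in line is compared with its wild type. The same stretch of mouse chromosome 16 holds the orthologues of human genes at 22q11.2 and at 3q29, intervals whose deletions are associated with neurodevelopmental and psychiatric disorders.

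The Ensembl gene identifier printed in the files could not be used to say which gene a feature reads. A feature's label here is the GENCODE M21 symbol of that identifier. File positions of 707 of the 709 window features whose label is also a GENCODE M21 gene of chromosome 16 differed from the GRCm38 positions by 179626 to 182136 bases. Counts followed the GRCm38 exons: the 472 features with no GRCm38 exon at their positions made up 64.0% of the window and held 0.847% of its counts, with a median summed count of 0. The 214 features that could be named by 1 gene held 55.0% of the counts, and 51 features over several inseparable genes held 44.2%. Only 6 named features carried the label of the gene they read (Vps8, Trp63, Dlg1, Zbtb20, Bbx and Alcam). A gene's name below therefore means the GENCODE M21 gene under the feature, and the label is added where it helps to tell features apart.

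A named and tested feature covered a median of 254 exon bases, or 3.64% of its gene's exon bases, so each level is that of a fragment of the transcript. Prodh, Alcam and Dlg1, which recur below, show what such a feature reads. In each line the coding exon is written 5′ to 3′ on the gene's strand from the GENCODE M21 transcripts (GRCm38), and capitals mark the bases that lie inside the counted feature.
Prodh, chr16:18072256-18072363, minus strand: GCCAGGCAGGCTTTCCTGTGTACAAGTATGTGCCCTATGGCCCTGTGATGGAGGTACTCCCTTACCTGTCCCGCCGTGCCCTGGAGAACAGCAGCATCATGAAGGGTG
Prodh, chr16:18077444-18077590, minus strand: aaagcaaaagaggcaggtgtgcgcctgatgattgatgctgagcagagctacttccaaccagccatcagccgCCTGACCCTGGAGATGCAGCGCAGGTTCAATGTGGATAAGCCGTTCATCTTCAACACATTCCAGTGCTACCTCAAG
Alcam, chr16:52273910-52274043, minus strand: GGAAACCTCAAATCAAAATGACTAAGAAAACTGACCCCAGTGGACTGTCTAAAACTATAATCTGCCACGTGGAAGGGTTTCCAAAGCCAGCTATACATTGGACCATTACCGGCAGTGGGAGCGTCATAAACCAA
Alcam, chr16:52274147-52274282, minus strand: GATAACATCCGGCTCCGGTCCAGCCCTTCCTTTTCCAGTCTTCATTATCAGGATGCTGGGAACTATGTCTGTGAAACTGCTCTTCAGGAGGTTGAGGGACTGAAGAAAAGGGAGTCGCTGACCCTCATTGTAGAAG
Dlg1, chr16:31665575-31665706, plus strand: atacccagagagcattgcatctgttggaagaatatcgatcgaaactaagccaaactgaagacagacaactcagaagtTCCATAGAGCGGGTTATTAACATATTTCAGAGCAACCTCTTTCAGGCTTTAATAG
Dlg1, chr16:31781782-31781835, plus strand: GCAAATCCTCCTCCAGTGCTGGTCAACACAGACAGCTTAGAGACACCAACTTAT
Dlg1, chr16:31805614-31805734, plus strand: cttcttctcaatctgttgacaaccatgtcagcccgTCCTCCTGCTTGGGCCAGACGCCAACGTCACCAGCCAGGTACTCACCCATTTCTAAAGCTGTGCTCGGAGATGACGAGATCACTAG
The 3 exons of Dlg1 belong to 3 separate features with 55, 54 and 86 counted bases, and the 2 exons of Alcam to 1 feature with 270. Prodh is read over 1062 exon bases, of which 2 of the coding exons are shown.

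Adcy5 itself was not measured. None of its 7184 exon bases lay in a feature of the files, and the feature labelled Adcy5 covered 218 exon bases of its neighbour Mylk. A further 4 features span part of the Adcy5 gene. The feature labelled Sec22a touches no exon there and held 5, 20 and 6 counts in WT, against 6 and 30 in KI. The features labelled Gm25079 and Gm23518 held 0 and 3 counts over all 5 libraries, and the 3 counts came from WT replicate 3. The feature labelled Pdia5 runs across the end of Adcy5 but reads 113 exon bases of Sec22a, so its level of 21.5 to 46.7 CPM (counts scaled to the library total) is not an Adcy5 level.

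The libraries were alike in depth and in the share of reads from the window. Total counts ranged from 6595105 to 7910584, the window held 1.14% to 1.17% of them, and log2 CPM of the window correlated between libraries at 0.939 to 0.953. The limit set by a count of 0 was 0.379 to 0.455 CPM, from 3 counts of the total and for counting error only. Markers of other cell types differed between libraries. Only Ttr of 8 choroid plexus markers was tested, at 41.8, 55.5 and 61.8 CPM in WT, against 28.1 and 2093 CPM in KI, so KI replicate 3 stands apart from the other 4 libraries. The 4 tested of 10 cortical projection neuron markers summed to 104 to 338 CPM in WT, against 121 and 37.7 CPM in KI. The 8 tested of 20 spiny projection neuron markers summed to 9197, 12100 and 10910 CPM in WT, against 7907 and 8869 CPM in KI. Penk, the opioid precursor of indirect-pathway neurons, made up most of it, at 6722, 8271 and 7355 CPM in WT, against 5296 and 5903 CPM in KI. Without Penk the other 7 summed to 2475, 3834 and 3555 CPM in WT, against 2611 and 2966 CPM in KI, so the groups overlapped. Of the 8 markers, 3 had a log2 fold change above 0 and 5 below. Penk, Rgs9 and Pde10a had an unadjusted p under 0.05 (edgeR), all with KI lower, and none of the 8 an adjusted one. Rgs9 stood at 301, 507 and 419 CPM in WT, against 177 and 223 CPM in KI, and the groups overlapped for Pde10a. The sum with Penk was the highest of the 7 marker sums in every library. The 5 tested of 10 oligodendrocyte markers summed to 2622 to 3330 CPM in WT, against 2600 and 2484 CPM in KI. Their part in the results below was not tested.

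Along the window the KI libraries stood close to WT. The adjusted p-value was under 0.05 for 0 of the 211 tested features, where 14 of 13665 (0.102%) passed over the whole genome with edgeR's quasi-likelihood test and Benjamini-Hochberg adjustment. The unadjusted p was under 0.05 for 16 features (7.58%), against 6.4% of all features. Of these, 9 had the higher level in KI (4.27%, against 2.68%) and 7 the lower (3.32%, against 3.72%). The unadjusted p was under 0.01 for 2 features (0.948%, against 2.11%). These shares lie near the background, and each rests on few features.

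The direction was even as well. The log2 fold change of KI over WT was above 0 for 105 features and below 0 for 106, where 49.7% of all features were above 0. Its median was -0.000455, with quartiles of -0.24 and 0.23, against -0.00214, -0.23 and 0.24 over all tested features. Both KI libraries lay beyond all 3 WT libraries for 52 features (24.6%, against 22.4% of all features). They lay above for 29 (13.7%, against 11.3%) and below for 23 (10.9%, against 11.1%). The biological coefficient of variation was 29.8%. In counts simulated with each feature's own spread, 1.5-fold changes were called for 9 of 50 features and 2-fold changes for 41 of 50. Changes of 1.5-fold or less would thus mostly go uncalled. Among features left unchanged, 15 were called. Changes were put only into features above a minimum level, which was higher than 5 CPM. These shares therefore do not hold for the 61 window features under 5 CPM. Nor do they hold for those of the 40 window features between 5 and 20 CPM that lie below the minimum.

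**Figure D1:**
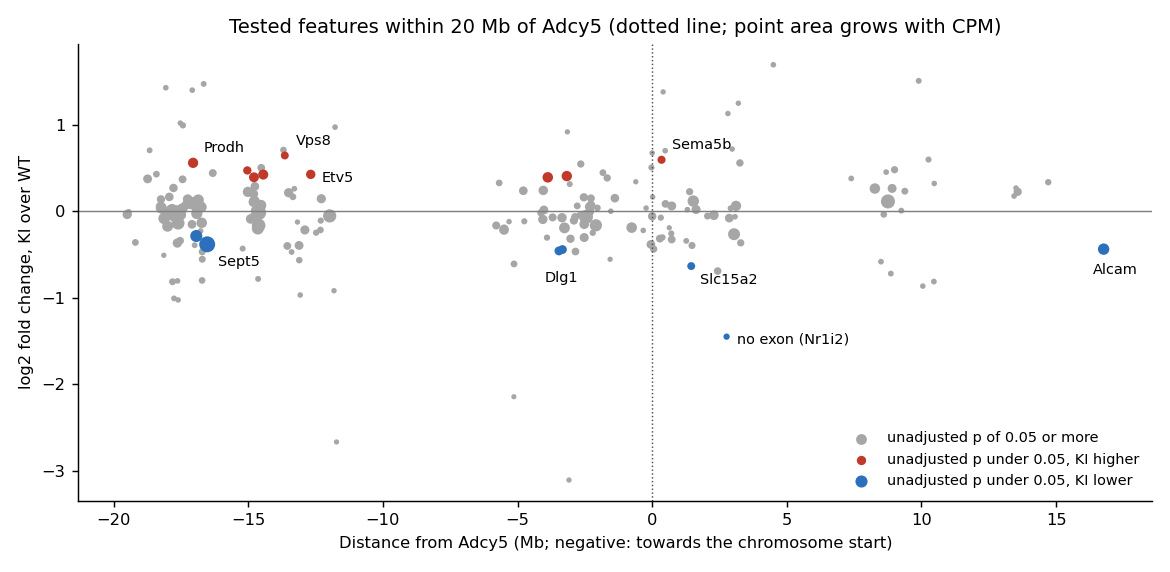
Log2 fold change of KI over WT (vertical axis) for the 211 tested features against their distance from Adcy5 in Mb (horizontal axis, negative towards the chromosome start); point area grows with CPM, and colour marks an unadjusted p under 0.05. The 16 coloured features, 9 with KI higher and 7 with KI lower, are spread over the window, and 1 of them lies within 1 Mb of Adcy5.

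By unadjusted p, the share of leaning features was not higher near Adcy5, where few features were tested. Within 1 Mb of the gene, 1 of 22 tested features (4.55%) had an unadjusted p under 0.05, against 6.4% of all features. Within 10 Mb it was 7 of 104 (6.73%), and beyond 10 Mb 9 of 107 (8.41%). Both KI libraries lay beyond all WT libraries for 5 (22.7%), 28 (26.9%) and 24 (22.4%) of these, against 22.4% of all features. The median log2 fold change was -0.01 within 1 Mb, -0.01 within 10 Mb and 0.01 beyond. Before Adcy5, towards the chromosome start, 70 features were above 0 and 81 below, and after it 34 were above and 24 below. Thinly filled stretches were less even: 6 of 7 features between 10 and 5 Mb before Adcy5 were below 0 with a median of -0.20, and 10 of 13 between 5 and 10 Mb after it were above 0 with a median of 0.23. Between 10 and 15 Mb after it, 6 of 8 were above 0 with a median of 0.24. None of the features of these 3 stretches had an unadjusted p under 0.05. The difference between stretches was not tested.

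The share of leaning features followed the level of the feature. None of the 61 window features under 5 CPM had an unadjusted p under 0.05, against 3.51% of all features at that level. Between 20 and 50 CPM it was 6 of 44 (13.6%, against 6.9%), and at 50 CPM or more 9 of 66 (13.6%, against 10.5%). The KI libraries lay beyond all WT libraries for 34.1% of the window features between 20 and 50 CPM, against 23.3% of all features there, but for 25.8% against 26.6% at 50 CPM or more and 14.8% against 19.2% under 5 CPM. No test was made of these differences.

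Nearest to Adcy5, on its proximal side, lie Mylk, the myosin light chain kinase, and Hacd2, an enzyme of very-long-chain fatty acid synthesis. Hacd2 stood at 43.7, 45.4 and 51.9 CPM in WT, against 43.2 and 28.9 CPM in KI over 606 exon bases. Both KI values were below the WT values, KI replicate 1 only just, and the log2 fold change was -0.38 ± 0.21 (SE) with an adjusted p of 0.869. Mylk was low in both its features. The feature labelled Adcy5 gave Mylk at 2.36, 4.14 and 4.29 CPM in WT, against 4.88 and 5.32 CPM in KI, a log2 fold change of 0.50 ± 0.57, and its second feature, labelled Hacd2, gave 0.04 ± 1.13. Kalrn, a guanine nucleotide exchange factor of dendritic spines, was read only in a feature it shares with Itgb5, Muc13 and Gm15657, at 107, 120 and 132 CPM in WT, against 112 and 98.3 CPM in KI. The groups overlapped there, and the log2 fold change was -0.19 ± 0.14.

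On the distal side the first gene is Sec22a, which acts in vesicle transport between the endoplasmic reticulum and the Golgi. Its 113 counted bases stood at 21.5, 41.4 and 46.7 CPM in WT, against 30.6 and 39.4 CPM in KI, and the groups overlapped with a log2 fold change of -0.06 ± 0.29. The feature shared by Sec22a and Pdia5, a protein disulfide isomerase, gave -0.44 ± 0.33. Sema5b, a transmembrane semaphorin that guides axons, came next with 3 features. Over 550 bases, in a feature whose span begins 0.348 Mb after Adcy5, it stood at 18.4, 28.6 and 23.9 CPM in WT, against 35.6 and 35.7 CPM in KI, and both KI libraries were above every WT library. The log2 fold change was 0.59 ± 0.24 (unadjusted p = 0.0272, adjusted p = 0.672, edgeR). Its longest feature, with 2324 bases, stood at 20.9, 29 and 28.9 CPM in WT, against 14.0 and 28.1 CPM in KI, a log2 fold change of -0.32 ± 0.31. The third gave -0.08 ± 0.64, so the fragments of Sema5b did not lean one way.

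Further out within 1 Mb, Kpna1, an importin alpha of nuclear import, gave -0.26, -0.33 and 0.06 in its 3 features. The feature at -0.33 covers only 1 exon base of Kpna1. The best measured feature covered 102 bases and stood at 47.7, 54.5 and 45.8 CPM in WT, against 54.6 and 48.3 CPM in KI, with overlapping groups. The shared feature of Parp14 and Hspbap1 gave 0.08 ± 0.26. Hspbap1 alone, Parp9, an ADP-ribosyltransferase family member of the interferon response, and Wdr5b were low, at 11.8 CPM or less in every library, and gave 0.70 ± 0.87, -0.19 ± 1.42 and 0.06 ± 0.51. The other 6 tested features within 1 Mb were a shared feature of Ccdc14 and Mylk and 5 over no exon, and none of them had an unadjusted p under 0.05. Counted as a list of 35 genes beside Adcy5, of which 15 were tested, 7 were above and 8 below 0, with a median of -0.06.

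The feature that leaned most by p was Prodh, proline dehydrogenase, the mitochondrial enzyme that starts the breakdown of proline. Prodh lies at chr16:18060357-18090203, and its feature, labelled Dgcr8, has a span that ends 17.0 Mb before Adcy5. It stood at 76.0, 87.3 and 84.3 CPM in WT, against 126 and 117 CPM in KI. Both KI libraries were above every WT library, and the means were 82.6 ± 5.82 (SD, n = 3) and 121.6 ± 6.09 (SD, n = 2). The log2 fold change was 0.56 ± 0.14, a ratio of 1.47, with an unadjusted p of 0.00138 and an adjusted p of 0.175 in edgeR's quasi-likelihood test. DESeq2 gave an adjusted p of 0.0340 and edgeR without the filter on low counts 0.0439, so for Prodh the call depends on the setting.

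Other features stood higher in both KI libraries. Etv5, an ETS transcription factor, stood at 61.7, 49.7 and 53.6 CPM in WT, against 70.3 and 77.4 CPM in KI (log2 fold change 0.43 ± 0.17, adjusted p = 0.627, edgeR). Klhl24, a substrate adaptor of a cullin ubiquitin ligase, stood at 26.5, 30.6 and 26.8 CPM in WT, against 39.3 and 38.3 CPM in KI (0.47 ± 0.20, adjusted p = 0.739, edgeR). Fam131a stood at 64.9, 95.2 and 76.5 CPM in WT, against 102.8 and 108.6 CPM in KI (0.42 ± 0.17, adjusted p = 0.660, edgeR). In each of these 3 genes the KI values did not overlap the WT values. A feature labelled Bdh1 stood at 93.0, 97.2 and 102.7 CPM in WT, against 132 and 124 CPM in KI (0.39 ± 0.13, adjusted p = 0.495, edgeR). It is named by Ppp1r2, a regulatory inhibitor of protein phosphatase 1, but covers 3 of its exon bases and more of the noncoding Gm41442. The feature shared by the SUMO protease gene Senp5, the cap-binding gene Ncbp2 and Gm26269 stood at 77.1, 102 and 91.4 CPM in WT, against 123 and 115 CPM in KI (0.41 ± 0.15).

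Vps8, a subunit of an endosomal tethering complex, was read in 3 features. The one with an unadjusted p under 0.05 stood at 20.1, 16.2 and 25.1 CPM in WT, against 38.6 and 25.3 CPM in KI, with a log2 fold change of 0.64 ± 0.27. KI replicate 3 was level with the highest WT library there. The other features of Vps8 gave 0.71 ± 0.39 and -0.40 ± 0.28. A further 2 entries of the higher group had an unadjusted p above 0.05. A feature labelled Cd200 lies over no exon and stood at 0.92, 3.34 and 1.22 CPM in WT, against 5.15 and 5.33 CPM in KI, and one shared by Yars2, Fgd4 and Pkp2 gave 0.37.

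Among features with lower KI values, the largest in level was the one shared by Sept5, a septin of presynaptic terminals, Gp1bb, a platelet glycoprotein subunit, and Gm49601. It stood at 690, 876 and 821 CPM in WT, against 578 and 643 CPM in KI, 16.5 Mb before Adcy5. Both KI libraries were below every WT library, and the log2 fold change was -0.38 ± 0.12 (unadjusted p = 0.0064, adjusted p = 0.403, edgeR). Alcam, an immunoglobulin-family adhesion molecule of axons and immune cells, lies at chr16:52248996-52454074, and its feature, whose span begins 16.8 Mb after Adcy5, was the last tested feature of the window. It stood at 146, 198 and 196 CPM in WT, against 123 and 142 CPM in KI. KI replicate 3 was just below WT replicate 1, the lowest WT library, and the log2 fold change was -0.44 ± 0.15 (unadjusted p = 0.0137, adjusted p = 0.524, edgeR). Without WT replicate 1, edgeR gave adjusted p-values of 0.0143 for the Sept5 feature and 0.0325 for Alcam, with log2 fold changes of -0.47 and -0.56.

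Slc15a2, a transporter of small peptides, stood at 33.5, 23.0 and 29.8 CPM in WT, against 17.3 and 19.7 CPM in KI (-0.63 ± 0.25, adjusted p = 0.669, edgeR). A second feature of Slc15a2 gave 0.22 ± 0.39. A feature labelled Nr1i2, which lies over no exon and in part within the body of Gsk3b, stood at 5.52, 9.09 and 6.89 CPM in WT, against 3.25 and 1.98 CPM in KI (-1.45 ± 0.54, adjusted p = 0.603, edgeR). Over the exons of Gsk3b, a kinase regulated by insulin and Wnt signals, the feature of 84 bases stood at 42.3, 45.7 and 40.3 CPM in WT, against 39.0 and 41.9 CPM in KI, a log2 fold change of -0.08 ± 0.18. Its other exonic feature, with 89 bases, was low, at 0.92, 0.80 and 1.38 CPM in WT, against 2.44 and 2.11 CPM in KI (1.13 ± 1.04), with both KI libraries above. Zdhhc8, a palmitoyltransferase, shares a feature with Ccdc188 and other transcripts, which stood at 237, 239 and 195 CPM in WT, against 177 and 190 CPM in KI (-0.29). Lztr1, an adaptor that targets RAS proteins for ubiquitination, gave -0.37 ± 0.17 in a feature within its body and 0.01 ± 0.14 in the one that covers more of its exon bases, 546 of 6111. Serpind1, the plasma protease inhibitor heparin cofactor II, gave -0.82 ± 0.39 at means of 12.8 and 7.29 CPM. The noncoding Gm26419 held 9, 21 and 9 counts in WT, against 1 and 2 in KI, too few for a fold change to be read from them.

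Dlg1, a synaptic scaffold protein also called SAP97, was read in 3 of its exons by separate features. Its 54-base exon at chr16:31781782-31781835, printed above, stood at 45.3, 50.5 and 56.9 CPM in WT, against 36 and 38.8 CPM in KI, a log2 fold change of -0.44 ± 0.19. The feature over 55 bases of the exon at chr16:31665575-31665706 stood at 44.9, 60.7 and 54.5 CPM in WT, against 38.1 and 39.5 CPM in KI. Its log2 fold change was -0.46 ± 0.19. This feature covers more exon bases of the noncoding Gm34256 and Gm536 than of Dlg1, so its level cannot be given to Dlg1 alone. In both features the KI libraries were below every WT library. The 86 counted bases of the exon at chr16:31805614-31805734 stood at 56.9, 63.5 and 70.3 CPM in WT, against 57.5 and 63.0 CPM in KI, a log2 fold change of -0.08 ± 0.17 with overlapping groups. In that order the unadjusted p-values were 0.0334, 0.0314 and 0.656, and the adjusted ones 0.699, 0.694 and 0.999 (edgeR). The difference between exons was not tested.

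**Figure D2:**
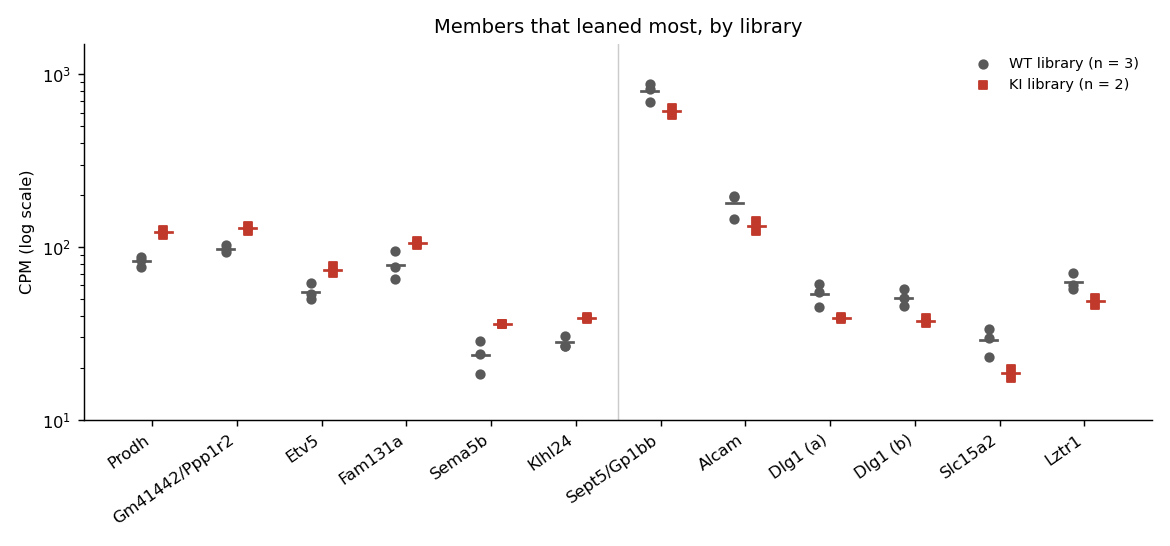
CPM on a log axis for features that leaned most, one point per library, with WT circles (n = 3), KI squares (n = 2) and a bar at each group mean. To the left of the line both KI libraries lie above all WT libraries, and to the right below; Dlg1 (a) is the 55-base and Dlg1 (b) the 54-base feature.

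Among genes read by several features, 26 had 2 or more tested. A read pair can be counted for each feature it overlaps, so such features are not independent. Abcc5, a transporter known to export cyclic nucleotides, had 7 features, of which 6 were above 0 and 1 below, with log2 fold changes from -0.07 to 0.39. The highest of them had an unadjusted p of 0.0461 (edgeR), with overlapping groups. Summed over them, Abcc5 stood at 442, 417 and 434 CPM in WT, against 413 and 546 CPM in KI, so KI replicate 1 was the lowest library and KI replicate 3 the highest. Txnrd2, the mitochondrial thioredoxin reductase, had 3 features, all below 0 (-0.80 to -0.47), and its sum of 38.6, 18.3 and 50.5 CPM in WT, against 30.1 and 17.6 CPM in KI overlapped between groups. Pi4ka, a phosphatidylinositol 4-kinase, had 5 features from -0.06 to 0.27, and Med15, a subunit of Mediator, 5 from -0.05 to 0.99. Opa1, which fuses inner mitochondrial membranes, gave -0.22 and -0.20 in its features, with sums of 122, 126 and 117 CPM in WT, against 108 and 102 CPM in KI.

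**Figure D3:**
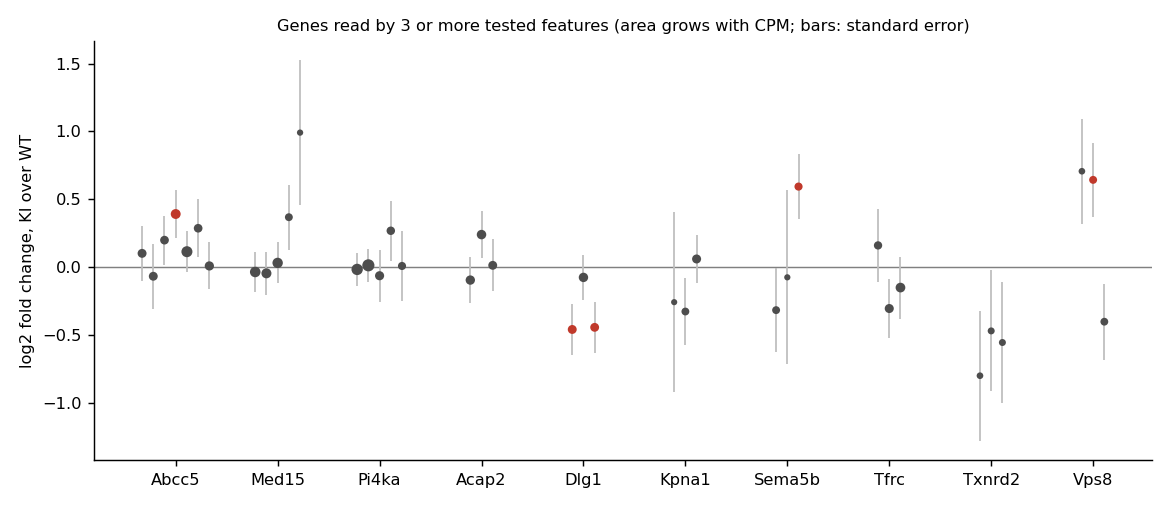
Log2 fold change of KI over WT (vertical axis) for each feature of the 10 genes with 3 or more tested features; bars are standard errors, point area grows with CPM, and red marks an unadjusted p under 0.05. Features of Dlg1 and Txnrd2 all lie below 0, while those of Sema5b and Vps8 lie on both sides.

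The 22q11.2 orthologues tested by a feature of their own did not lean together. Of 37 genes of that list in the window, 12 were named by a feature of their own, 10 only shared one and 15 had none, and 10 were tested. Of these 10, 5 were above and 5 below 0, with a median of -0.01. An unadjusted p under 0.05 (edgeR) was found for 1 (Prodh), against 6.4% of all features. The shared features of list genes with an unadjusted p under 0.05 were left out of these counts. They were those of Sept5 with Gp1bb (-0.38) and of Zdhhc8 (-0.29), both with KI lower. Ranbp1, a regulator of the Ran GTPase, gave 0.03 ± 0.18 and Tango2 0.07 ± 0.14. Of the 3q29 orthologues 4 of 20 were tested, 1 above and 3 below 0, with a median of -0.11. The feature shared by Senp5 and Ncbp2, with KI higher (0.41), was left out of these counts. Rnf168, a ubiquitin ligase of the DNA damage response, stood at 23.6, 26.9 and 22.2 CPM in WT, against 17.6 and 17.5 CPM in KI (-0.47 ± 0.25). Tfrc, the transferrin receptor, gave -0.15 ± 0.23. For these and the other lists a gene is read by its own feature with most of its exon bases. Genes that only share a feature are left out. For Dlg1 that feature, with 182 bases, was too low to be tested.

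The other lists gave a like picture, with 0 members at an adjusted p under 0.05. In neuronal adhesion, synapse and signalling genes 4 of 13 were above 0 and 9 below, with a median of -0.13. Ap2m1, a subunit of the clathrin adaptor AP-2, gave -0.16 ± 0.16. In transcription and chromatin genes 4 of 8 were above 0, with a median of 0.12. Zbtb20, a zinc finger repressor, stood at 104, 114 and 83.7 CPM in WT, against 94.9 and 146 CPM in KI, with KI replicate 3 highest and a log2 fold change of 0.26. In translation and protein turnover genes 3 of 8 were above 0 (median -0.06), and Eif4a2, a helicase of translation initiation, gave -0.06 ± 0.12. In mitochondrial and metabolic genes 3 of 9 were above 0 (median -0.13), and in immune receptor and cytokine genes 1 of 5 (median -0.19). The median over all tested features was -0.00214.

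**Figure D4:**
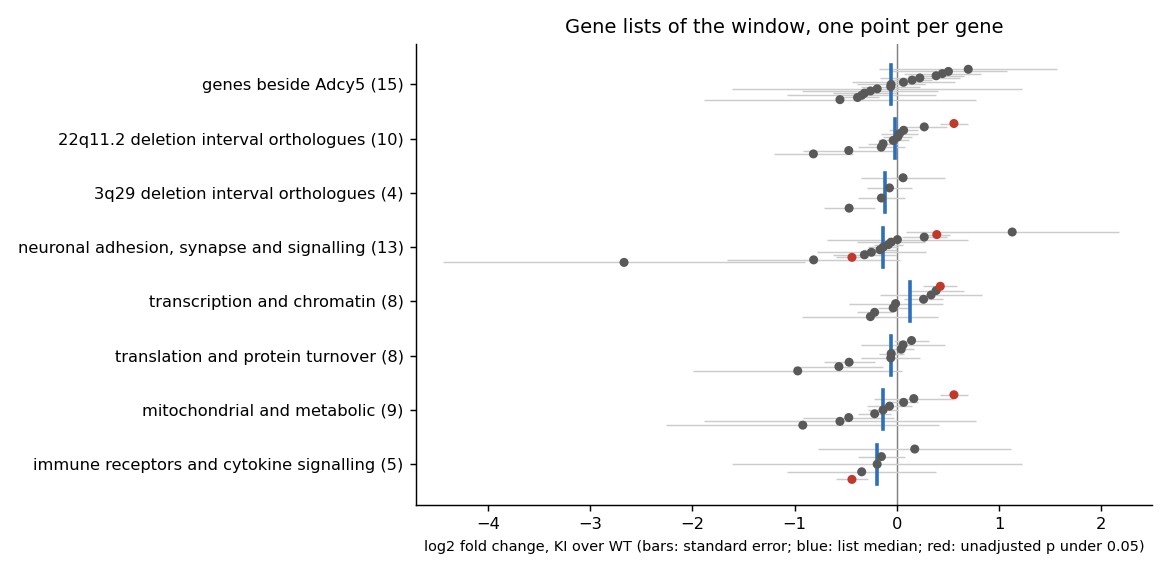
Log2 fold change of KI over WT (horizontal axis) for the tested genes of 8 lists of the window, one point per gene with its standard error, a blue bar at the list median, and red for an unadjusted p under 0.05; the number of tested genes stands beside each list. The medians lie between -0.19 and 0.12, and points of every list fall on both sides of 0.

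Several genes known for their part in the striatum could not be read. Drd3, the D3 dopamine receptor, Sst, the somatostatin of interneurons, Cldn5 of endothelial tight junctions, Apod, Lsamp and Gap43 had no feature over their exons. The feature labelled Drd3 reads 761 exon bases of Zbtb20. Of 338 protein-coding genes of the window, 116 were named by a feature and 190 had any feature over an exon.

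Levels within the window were compared per kilobase of covered exon, only for features with at least 300 covered bases, a minimum chosen after the values were seen. A pair is counted from 1 overlapping base, which inflates the level per kilobase of shorter overlaps. On that scale Ap2m1 was highest at 660 CPM per kb, Pi4ka stood at 465 and 433, Tnk2, a nonreceptor tyrosine kinase, at 412 and Abcc5 at 308. Lower among the leading genes were Eif2b5, a subunit of the initiation factor eIF2B, at 215, Camk2n2, an inhibitor of CaM kinase II, at 214 and Ndufb4, a subunit of respiratory complex I, at 193.

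Most well-read features varied little. Over 110 members of at least 20 CPM, the median log2 range over the 5 libraries was 0.43, and 62 had a range under 0.5. Camk2n2 was an exception, at 217, 88.1 and 86.9 CPM in WT, against 187 and 87.8 CPM in KI, so replicate 1 of both groups was high and the log2 fold change was 0.07. Smpd4, a sphingomyelinase, stood at 11.4, 31.7 and 23.7 CPM in WT, against 10.2 and 24.9 CPM in KI, with replicate 1 of both groups low.

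At the edges of the window the values were like those inside. The first tested feature inside, 19.5 Mb before Adcy5 and shared by Ube2v2, Mcm4, Gm49538 and Prkdc, stood at 61.6, 54.3 and 55.9 CPM in WT, against 61.1 and 50.4 CPM in KI (log2 fold change -0.04). The first outside on that side was Abcc1, at 10.4, 8.69 and 15 CPM in WT, against 6.64 and 19.6 CPM in KI (0.21). Beyond Alcam on the other side came Nfkbiz, at 8.54, 4.81 and 8.72 CPM in WT, against 3.79 and 9.16 CPM in KI (-0.18). The groups overlapped in all 3.

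Cyclic AMP acts on transcription in part through CREB, which binds the palindrome TGACGTCA or the shorter TGACG, so the promoters of the window were searched for both on both strands. The palindrome stood in 2.35% of 511 RefSeq promoters of the window (GRCm38.p6, 300 bases around the start), against 1.79% of all 32851 promoters. Among the 97 promoters of the 74 named and tested genes that matched RefSeq, of 94, it stood in 3.09%. The shorter TGACG or its complement CGTCA, which also lies within the palindrome, stood in 20.9%, 20.8% and 25.8% of the same sets. Among the promoters of genes described above, those of Prodh, Sema5b, Fam131a, Ppp1r2 and Hacd2 had neither. Nor had the single promoter searched for each of Etv5 and Dlg1, which have several. Alcam had 1 short match 233 bases before its start, Slc15a2 1 at 44 bases and Vps8 1 at 40 bases. Lztr1 had 2, at 72 and 14 bases, and Camk2n2, where the groups overlapped, had 1 at 162 bases. Absence of a match thus occurred on both sides, KI higher and KI lower. Matches stood with KI lower in Alcam and in 1 feature each of Slc15a2 and Lztr1. Among the genes listed here with KI higher they stood only in Vps8, whose features lay on both sides of 0. No promoter is listed for Klhl24, Sept5 and other genes described above, so this split rests on part of them. A match is a description of the letters and not a site.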

How the data were processed

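Per the file headers, the authors ran featureCounts 2.0.1 and deposited unnormalised counts of read pairs, using an Ensembl release 103 annotation of GRCm39. Per those headers, a pair counted for every feature it overlapped, without regard to strand, which mixes a gene with any overlapping or antisense partner. The labels name a stranded mRNA kit, and the aligner is not given in the sources used here. Members were laid over GENCODE M21 exons (GRCm38) by position using bedtools 2.31.1, without converting coordinates. A feature is named by the gene alone there or the only protein-coding one.

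KI was tested against WT over the whole table after filterByExpr and TMM scaling, by the quasi-likelihood test of edgeR 4.0.16 (R 4.3.3), with Benjamini-Hochberg adjustment over all 13665 tested features. Levels are CPM. On simulated counts over 12855 features, 41 of 50 2-fold and 47 of 50 3-fold changes were called, and 15 unchanged features. The changes were put only into features above a minimum level, which was higher than 5 CPM. Alternatives were RLE or no scaling, no filter, DESeq2 1.42.0, limma 3.58.1 (voom), a replicate block, leaving out each library, narrower windows and features over 1 gene.

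Genes were named by a rule: all tested features within 1 Mb, the 10 smallest p-values in each direction with separated groups, the 10 highest levels, up to 4 per list, the window edges, and a set of brain genes. A few items of the rule are not reported here. Genes given as examples of several features or wide ranges were chosen after their values were seen. Members and lists were chosen with earlier results of these data known. The lists are of genes beside Adcy5, the 22q11.2 and 3q29 intervals, 5 functional groups and 7 cell types.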

Additional observations from a re-analysis of the deposited data

How the results depend on the processing

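Each setting below was compared with the fit of the report, where 0 of 211 window features had an adjusted p under 0.05, 16 an unadjusted p under 0.05, and the median log2 fold change was -0.000455. The count at an adjusted p under 0.05 stayed at 0 with RLE scaling, unscaled totals and voom. Both narrower windows and the features over 1 gene are parts of the fit of the report, so 0 was fixed there in advance. A false discovery rate of 0.10 reuses that fit too, and 0 passed it. The count was 1, Prodh, without the filter on low counts and 1, again Prodh, with DESeq2, both among the named genes. Leaving out 1 library at a time gave 0 to 2, and the 2, the Sept5 feature and Alcam, came without WT replicate 1. Over the whole table the calls numbered 14, against 183 without the filter, 134 with DESeq2, 52 with voom, 161 without WT replicate 1, 2 without WT replicate 3, 3 without WT replicate 2, 30 without KI replicate 1 and 6 without KI replicate 3. When a WT library was left out, the count at an unadjusted p under 0.05 ran from 9 to 18. It was 18 (8.65%, against 9.5% of all features) without WT replicate 1. Without WT replicate 2 it was 13 (6.4%, against 5.37%), and without WT replicate 3 it was 9 (4.41%, against 4.91%). It was 7 within 10 Mb, 1 within 1 Mb and 10 over features of 1 gene, where fewer features were tested.

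The median log2 fold change moved to 0.0481 with unscaled totals, where that of all features was 0.0467. It was 0.0108 without the filter, 0.0111 with voom, -0.0121 within 10 Mb, -0.012 within 1 Mb and -0.0367 over features of 1 gene, and ran from -0.0267 to 0.0139 when a library was left out. Where a library left out leaves 1 KI library, that library is assumed to vary as the WT ones do. The cause of these moves was not tested.

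Replicate numbers 1 and 3 occur in both groups, but no label says that they mark a pair. Deviations from the group means correlated at 0.111 for number 1 and 0.0697 for number 3, with 2 shared numbers. With 2 KI libraries their deviations mirror each other (correlation -1), so the values for numbers 1 and 3 are not separate observations. WT replicate 2, which has no KI partner, gave 0.0545 with KI replicate 3. These values thus cannot decide whether the numbers mark pairs. With the replicate number as a block, 0 window features passed (smallest adjusted p 0.0543, edgeR). An unadjusted p under 0.05 was reached by 20 (9.48%, against 8.12% of all features). The median was -0.0153, and 154 features of the whole table passed. Number 2 occurs only in WT, so that library does not inform the fold changes of this fit, which leaves little to estimate the spread from. The block turned the sign of the feature labelled Ccdc14 (-0.407), Sec22a (0.118), Parp9 (0.317), Wdr5b (-0.109) and Ubxn7 (-0.225).

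Over 62 named features and up to 12 alternatives each, 695 values kept their direction and side of the threshold, 4 newly passed and 38 changed sign. The 12 include the false discovery rate of 0.10, which reuses the fit of the report, so its values could not change sign. Voom turned the sign of Sec22a (0.0284) and of Sema5b labelled Gm26838 (0.0288). When 1 library was left out, the log2 fold change ran from -1.39 to 1.09 for the feature labelled Ccdc14 (no exon), from -0.449 to 0.371 for Ccdc14 with Mylk (labelled Mylk), from -0.386 to 1.05 for Mylk (labelled Hacd2), from -0.788 to 1.38 for the feature labelled Sec22a (no exon), from -0.325 to 0.159 for Sec22a (labelled Pdia5), from -0.368 to 1.37 for the feature labelled 1600019K03Rik (no exon), from -0.91 to 0.0965 for Sema5b (labelled Hspbap1) and from -0.868 to 0.427 for Sema5b (labelled Gm26838). It ran from -0.00422 to 0.252 for Parp14 with Hspbap1 (labelled Kpna1), from -1.83 to 0.546 for Parp9 (labelled Csta1), from -1.11 to 0.34 for Kpna1 (labelled Gm6815), from -0.0328 to 0.148 for Kpna1 (labelled Gm5416), from -0.773 to 0.585 for Wdr5b (labelled 2010005H15Rik), from -0.144 to 0.00671 for Dlg1 (labelled Gm49733) and from -0.204 to 0.892 for Zbtb20 (labelled Zbtb20). Likewise it ran from -0.0846 to 0.538 for Zbtb20 (labelled Drd3), from -0.618 to 0.204 for Tfrc (labelled Gm26769), from -0.166 to 0.0167 for Bdh1 (labelled Gm536), from -0.585 to 0.675 for Trat1 (labelled Dzip3) and from -0.244 to 0.338 for Ubxn7 (labelled Gm34680). Depth limits the low features among them, since at under 5 CPM a library holds few counts.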

Other observations

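Marker lists not used above complete the account of the cell types in these libraries. The 3 tested of 8 endothelial markers summed to 137, 106 and 122 CPM in WT and to 127 and 132 CPM in KI. The 3 tested of 8 astrocyte markers summed to 133, 145 and 158 CPM in WT and to 125 and 131 CPM in KI. The 3 tested of 8 microglial markers summed to 25.9, 29.3 and 31.5 CPM in WT and to 19.2 and 24.3 CPM in KI. Both KI libraries lay below all WT libraries for the astrocyte and the microglial sums, as for the oligodendrocyte and spiny projection neuron sums above. For single features this held for 11.1% of all those tested. The groups overlapped for each astrocyte marker alone, and of the microglial markers only Trem2 was separated. The endothelial sums overlapped, with only Tek separated, KI lower. None of the markers of these 3 types had an unadjusted p under 0.05 (edgeR).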
